A study of Rattus norvegicus with 8 samples.

Results

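The genes described here are 10 genes of the YAP/TAZ pathway: the coactivators Yap1 (YAP) and Wwtr1 (TAZ), their DNA-binding partners Tead1, Tead2 and Tead3, and the target genes Ctgf (also named Ccn2), Cyr61 (Ccn1), Ankrd1, Amotl2 and Lats2. They were chosen by name, and all 10 of 10 were found among the 17337 gene symbols of the deposited count table. The RNA came from periodontal ligament (PDL), the connective tissue that holds the tooth root in its socket, captured by laser micro-dissection around the cervical part of the root in rats (Rattus norvegicus). The rats grew normally and had no treatment; the labels name neither a strain nor a transgene. The groups were 4 animals aged 18 days (P18) and 4 aged 28 days (P28), with 1 library taken as 1 animal, and teeth come into occlusal contact between these ages.

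YAP and TAZ carry no DNA-binding domain of their own and act on genes through TEAD proteins. The Hippo kinases, LATS1 and LATS2 the last among them, phosphorylate YAP and TAZ and keep them out of the nucleus, whereas stretch, a stiff matrix and tension in the actin cytoskeleton favour their entry. Because the control acts on the proteins, transcript levels of Yap1, Wwtr1 and the TEAD genes do not report activity, and the pathway is commonly read from targets such as Ctgf, Cyr61 and Ankrd1. Amotl2 and Lats2 are targets that act back as inhibitors of YAP and TAZ. The PDL is loaded at every bite.

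The core of the TEAD recognition motif, GGAATG, was searched on both strands in RefSeq promoter windows (GRCr8; 250 bases before and 50 after each gene start), where 6 of the 10 genes had an entry. It was present in 4 of these, Ctgf, Cyr61, Amotl2 and Yap1, and 14.2% of all 33469 windows of this length held it. Ctgf held 3 matches, which begin 166, 101 and 92 bases before the start, and 0.0956% of all windows held 3 or more. Cyr61, Amotl2 and Yap1 held 1 match each, beginning 113, 76 and 116 bases before the start. The SRF binding motif (CArG box) was in none of the 6 windows and in 1.64% of all windows. A match describes the sequence and is not a measured binding site. The 250 bases before the start of the 3 target genes with an entry are shown because the expression readout rests on such genes; they read 5′ to 3′ along the gene, with GGAATG or its reverse complement CATTCC in capitals.
Ctgf (GRCr8 chr1:22624615-22624864, minus strand): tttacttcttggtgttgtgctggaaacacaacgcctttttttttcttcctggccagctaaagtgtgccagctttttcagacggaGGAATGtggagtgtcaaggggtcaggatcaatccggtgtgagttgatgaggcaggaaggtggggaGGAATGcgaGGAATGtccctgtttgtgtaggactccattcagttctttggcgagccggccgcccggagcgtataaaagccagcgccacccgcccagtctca
Cyr61 (GRCr8 chr2:237225690-237225939, minus strand): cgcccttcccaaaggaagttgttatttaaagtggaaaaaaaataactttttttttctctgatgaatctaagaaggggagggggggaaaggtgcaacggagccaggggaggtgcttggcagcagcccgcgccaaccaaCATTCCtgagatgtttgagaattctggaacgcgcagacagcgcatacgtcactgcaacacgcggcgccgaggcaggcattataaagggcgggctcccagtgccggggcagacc
Amotl2 (GRCr8 chr8:112182376-112182625, plus strand): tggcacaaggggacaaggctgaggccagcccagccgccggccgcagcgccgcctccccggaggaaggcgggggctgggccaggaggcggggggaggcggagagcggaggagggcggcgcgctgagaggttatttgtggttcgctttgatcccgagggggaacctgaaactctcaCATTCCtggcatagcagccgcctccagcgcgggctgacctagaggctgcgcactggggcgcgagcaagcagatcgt
The windows of Wwtr1 and Tead3 held no GGAATG on either strand. Tead1, Tead2, Ankrd1 and Lats2 are named only.

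Total counts per library ran from 5252693 (P28 replicate 4) to 26645656 (P18 replicate 2). P28 replicate 4 stood apart, at 163 on the first principal component of log2 CPM against -40.9 to 3.60 for the other 7 libraries. Levels are CPM (counts scaled to the library total with TMM factors; values of single libraries follow the order of replicates 1 to 4) and are not corrected for transcript length, so they compare libraries and not genes. Of 9 ligament fibroblast markers measured, 8, among them Postn, Col1a1 and Tnmd, were at 3.32 CPM or more in every library, and Aspn had at most 2 counts in any. Summed CPM of the 9 ran from 95884 to 137102 at P18 and from 137739 to 195792 at P28. The ages did not overlap, but the gap at the boundary was small, 137102 against 137739 CPM. Of these markers, edgeR called 1 higher and 1 lower, beside 0.516% and 0.420% of all genes tested. Captures also held RNA of other cells: summed CPM of epithelial markers ran from 32.2 to 611 at P18 and from 113 to 5637 at P28, and those of endothelial markers from 999 to 1467 and from 1276 to 2084. No tested gene of these 2 lists was called. Enamel organ markers summed to 15.04 to 4833 CPM at P18 and 5.61 to 637 at P28, with Ambn and Amtn called lower by edgeR. Osteoblast and cementoblast markers summed to 3865 to 5916 and 5803 to 10337 CPM, with Bglap called higher, and osteoclast markers to 1448 to 1707 and 1022 to 7798 CPM, with Acp5 called higher; the part of these cells in the values that follow was not tested. In such bulk samples, fewer cells of a type and less RNA per cell cannot be told apart.

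None of the genes tested by edgeR passed its test of a difference between the ages. The edgeR quasi-likelihood test covered 9 of the 10 genes, and Ankrd1 was below its expression filter. On simulated counts, the edgeR fit called 7.33% of genes changed 2-fold and 54% of those changed 4-fold. These shares do not apply to Yap1 and Tead1, whose counts were too low. On the measured counts, edgeR called 0 of the 9 at a Benjamini-Hochberg adjusted p under 0.05 (adjusted p 0.200 to 0.990), where it called 0.936% of the 10472 genes tested. At an unadjusted p under 0.05 there were 2 of the 9, Cyr61 and Tead2, against 14.5% of all genes tested. The DESeq2 Wald test, which called 6.48% of its genes, called 0 of them, and limma with voom and sample quality weights, which called 2.93% of all genes, called 1, Cyr61. The log2 fold changes, P28 over P18, were above 0 for 4 and below 0 for 5, with a median of -0.02, beside 0.01 over all genes tested.

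**Figure D1:**
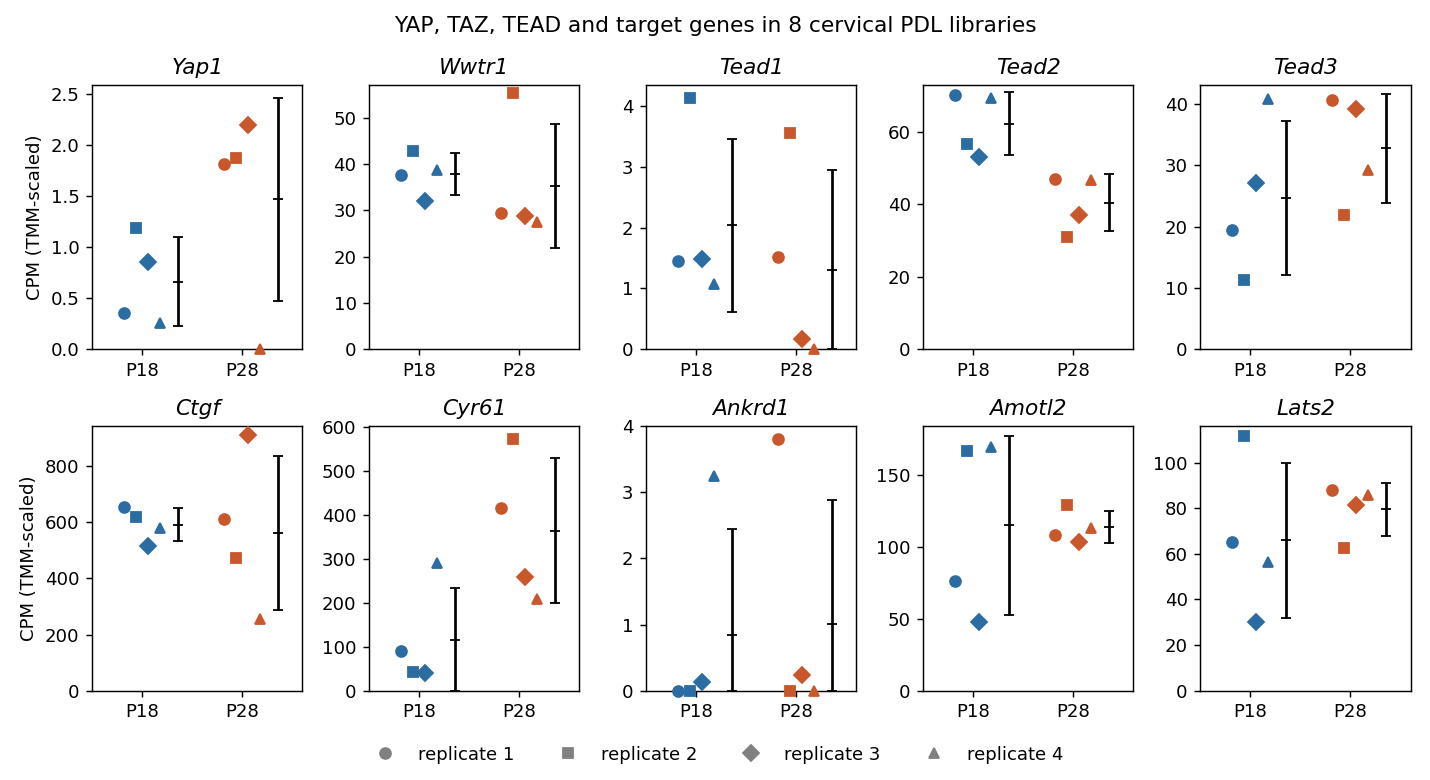
Level of each of the 10 genes in CPM (vertical axes, linear from 0, one scale per gene) in the P18 and P28 libraries; symbols mark the replicate number and the black bar gives the mean ± SD of 4 libraries, drawn down to 0 at most. Tead2 is the gene whose ages do not overlap, and P18 replicate 4 lies at 291 CPM for Cyr61, among the P28 libraries.

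Yap1, the gene for YAP, gave few counts in every library. Replicates 1 to 4 held 4, 33, 20 and 5 counts at P18 and 31, 18, 27 and 0 counts at P28. In CPM these were 0.361, 1.19, 0.852 and 0.254 at P18 and 1.82, 1.88, 2.20 and 0 at P28. The 3 P28 libraries with counts thus lay above all P18 libraries, and the fourth, P28 replicate 4, lay below them; its count of 0 allows up to 0.623 CPM. Over all libraries of an age, the 62 counts at P18 correspond to 0.796 CPM (95% exact Poisson interval 0.610 to 1.02) and the 76 counts at P28 to 1.65 (1.30 to 2.07 CPM), intervals that cover counting error only. With the spread between animals, the log2 fold change was 1.15 ± 1.40 (SE; 95% interval -1.90 to 4.19; adjusted p = 0.762 by edgeR) and 1.55 without P28 replicate 4 (adjusted p = 0.600 by edgeR). The pooled intervals did not overlap, but they leave out the spread between animals, with which the difference did not pass the test.

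Wwtr1, the gene for TAZ, was measured far more precisely. Its level in replicates 1 to 4 was 37.7, 42.9, 31.9 and 38.7 CPM at P18 and 29.4, 55.4, 28.7 and 27.4 CPM at P28. At P28, 3 libraries lay just below the P18 range and replicate 2 above it, so the ages overlapped. The means were 37.8 ± 4.52 and 35.2 ± 13.5 CPM (SD, n = 4 per age). The log2 fold change was -0.10 ± 0.36 (adjusted p = 0.933 by edgeR), and its 95% interval, -0.88 to 0.67, lies within a 2-fold change in either direction. Without P28 replicate 2 it was -0.40 (adjusted p = 0.661 by edgeR). P28 replicate 2 also had the highest summed CPM of epithelial markers (5637, against 32.2 to 1187 in the other 7); the part of epithelium in its Wwtr1 level was not tested.

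The ratio of Wwtr1 to Yap1 counts, which needs no scaling between libraries, was 93.0, 35.6, 36.6 and 139 at P18 and 15.9, 28.7, 12.9 and 265 at P28, with 0.5 added to each count. In P28 replicate 4 the ratio rests on 0 Yap1 counts. The 3 other P28 libraries lay below all P18 libraries. The mean log2 ratio differed by -0.86 (exact permutation test, 2-sided, p = 0.486; adjusted p = 0.629 over 3 ratios), and 4 libraries against 4 cannot go below p = 0.0286. Without P28 replicate 4 the difference was -1.83 (exact permutation test, 2-sided, p = 0.0857).

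Among the TEAD genes, which encode the DNA-binding partners, Tead2 was lower in every P28 library than in any P18 library. Replicates 1 to 4 lay at 70.0, 56.5, 53.0 and 69.2 CPM at P18 and at 46.9, 30.9, 37.1 and 46.7 CPM at P28. The means were 62.2 ± 8.70 and 40.4 ± 7.83 CPM (SD, n = 4 per age). The log2 fold change was -0.62 ± 0.28 (95% interval -1.23 to -0.01). By edgeR, its unadjusted p was 0.0457 and its adjusted p 0.330, above the threshold. It was the only one of the 9 tested genes whose ages did not overlap; over all genes tested the ages did not overlap in 10.4%, with P28 higher in 4.91% and lower in 5.54%. Its log2 fold change stayed between -0.70 and -0.51 when any 1 library was left out (edgeR adjusted p 0.226 to 0.556).

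Tead3 lay at 19.4, 11.4, 27.1 and 40.9 CPM at P18 and at 40.7, 21.9, 39.1 and 29.3 CPM at P28. The ages overlapped, with 1 P18 library the highest of all. The log2 fold change was 0.41 ± 0.46 (95% interval -0.60 to 1.41; adjusted p = 0.738 by edgeR). Tead1 had few counts, 16, 115, 35 and 21 at P18 and 26, 34, 2 and 0 at P28 in replicates 1 to 4, and at both ages replicate 2 was the highest, at 4.13 and 3.54 CPM. Its log2 fold change of -0.62 ± 1.43 (95% interval -3.73 to 2.48; adjusted p = 0.890 by edgeR) was -0.04 without P18 replicate 2, -1.79 without P28 replicate 2, -0.26 without P28 replicate 3 and -0.23 without P28 replicate 4.

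As shares of the summed Tead1, Tead2 and Tead3 counts, Tead1 made up 2.53% ± 2.17 at P18 and 2.05% ± 2.93 at P28 (SD, n = 4 per age; exact permutation test, 2-sided, p = 0.629, adjusted p = 0.629 over 3 ratios). The share of Tead2 was 77.1%, 78.4%, 65.0% and 62.3% at P18 and 52.6%, 54.8%, 48.6% and 61.5% at P28. The share of Tead3 was 21.4%, 15.8%, 33.2% and 36.8% at P18 and 45.7%, 38.9%, 51.2% and 38.5% at P28. Neither the Tead2 nor the Tead3 share overlapped between the ages. The gap at the boundary was small, 62.3% against 61.5% for Tead2. With Tead1 at 0 to 6.30% of the sum, the Tead3 share is nearly what the Tead2 share leaves. The non-overlap of these shares is thus not a pair of separate observations. The Tead2 and Tead3 shares were looked at after their values were seen and were not tested. Tead4 was not analysed here.

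**Figure D2:**
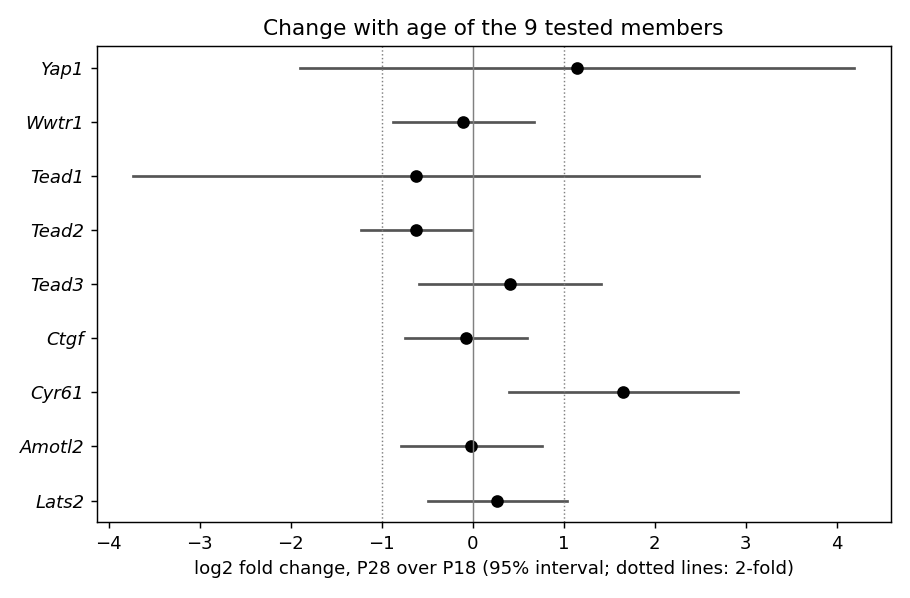
Log2 fold change, P28 over P18 (horizontal axis), of the 9 tested genes: points are the estimates of the edgeR fit, lines their 95% intervals, and dotted lines mark a 2-fold change. Wwtr1, Ctgf and Amotl2 have intervals inside the dotted lines, whereas those of Yap1 and Tead1 run from -1.90 to 4.19 and from -3.73 to 2.48.

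Among the targets, the 95% intervals of Ctgf and Amotl2 lay within a 2-fold change, that of Cyr61 ran from 0.40 to 2.91 on the log2 scale, and Ankrd1 was barely detected. The targets were not tested against each other. Ctgf, a secreted matricellular protein of the CCN family, lay at 655, 619, 516 and 579 CPM at P18 and at 613, 472, 910 and 254 CPM at P28. The P18 libraries lay close together and the P28 libraries spread on both sides of them, with P28 replicate 3 the highest of all and P28 replicate 4 the lowest. The means were 592 ± 59.6 and 562 ± 275 CPM (SD, n = 4 per age). The log2 fold change was -0.07 ± 0.31 (adjusted p = 0.944 by edgeR), with a 95% interval of -0.74 to 0.59, which leaves out a 2-fold change in either direction. Without P28 replicate 4 it was 0.17 and without P28 replicate 3 it was -0.41 (adjusted p of 0.754 and 0.611 by edgeR).

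Cyr61, another secreted CCN protein and an early-responding target, had the widest range of the 7 genes with counts in every library. It lay at 89.3, 41.5, 41.3 and 291 CPM at P18 and at 416, 574, 259 and 209 CPM at P28, a 13.9-fold range. P18 replicates 1 to 3 lay below every P28 library, and P18 replicate 4 lay above P28 replicates 3 and 4. The means were 116 ± 119 and 365 ± 165 CPM (SD, n = 4 per age). The log2 fold change was 1.65 ± 0.58 (95% interval 0.40 to 2.91), with an unadjusted p of 0.0140 and an adjusted p of 0.200 by edgeR. By edgeR, Cyr61 passed only when 1 library was left out: without P18 replicate 4 the log2 fold change was 2.67 (adjusted p = 0.0299 by edgeR). Without any other single library it was 1.35 to 1.85 (edgeR adjusted p 0.150 to 0.388). With no library left out, Cyr61 also passed with voom and sample quality weights (2.11, adjusted p = 0.0455).

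P18 replicate 4 also had the highest summed CPM at P18 of 5 immediate-early genes (Fos, Egr1, Ier2, Junb and Dusp1, a list written after the Cyr61 values were seen), 486 against 302 to 312 in the other P18 libraries. At P28 the sums were 343, 1061, 705 and 284 in replicates 1 to 4. P28 replicate 2, the highest for Cyr61, was the highest here too, but P28 replicate 1, at 416 CPM of Cyr61, lay close to the P18 libraries. The part of this in the Cyr61 level was not tested. Within a library, the number of Ctgf counts per Cyr61 count was 7.34, 14.9, 12.5 and 1.99 at P18 and 1.47, 0.821, 3.51 and 1.22 at P28; this ratio was formed after the values were seen and was not tested. Of the P18 libraries, replicate 4 lay within the P28 range and the other 3 above it.

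Ankrd1, a nuclear ankyrin-repeat protein known best from striated muscle, was at or near 0 in 6 of the 8 libraries. Replicates 1 to 4 held 0, 0, 3 and 64 counts at P18 and 65, 0, 3 and 0 counts at P28. The counts came almost entirely from P18 replicate 4 (3.25 CPM) and P28 replicate 1 (3.81 CPM), 1 library of each age. In P28 replicate 1, 11 striated muscle markers summed to 53.3 CPM, among them Mylpf at 26.0 and Tnni2 at 13.7 CPM. In P18 replicate 4 they summed to 4.32 CPM, which is within the range of the other 6 libraries (2.93 to 46.6 CPM). The 46.6 CPM was that of P28 replicate 2, which held 0 Ankrd1 counts. Myog was at 0 throughout. The part of muscle RNA in the Ankrd1 counts was not tested. Fitted without the expression filter, the log2 change of Ankrd1 was 0.27 ± 2.32 (adjusted p = 0.971 by edgeR). The 67 counts at P18 and 68 at P28 correspond to 0.860 CPM (95% exact Poisson interval 0.667 to 1.09) and 1.48 (1.15 to 1.88) CPM. These intervals cover counting error only and leave out the spread between animals. Of the pooled counts, 64 at P18 and 65 at P28 came from 1 library of each age.

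Amotl2, an angiomotin-family protein that holds YAP outside the nucleus, lay at 76.4, 167, 47.4 and 169 CPM at P18 and at 108, 129, 104 and 113 CPM at P28. All 4 P28 libraries lay between the lower and the upper pair of P18 libraries. The means were 115 ± 62.4 and 114 ± 11.1 CPM (SD, n = 4 per age). The log2 fold change was -0.02 ± 0.36 (95% interval -0.79 to 0.76; adjusted p = 0.990 by edgeR). Lats2, the kinase that phosphorylates YAP and TAZ, lay at 65.2, 112, 30.0 and 56.5 CPM at P18 and at 88.2, 62.7, 81.4 and 85.8 CPM at P28. The P18 range enclosed all P28 values, and the log2 fold change was 0.27 ± 0.35 (95% interval -0.50 to 1.03; adjusted p = 0.783 by edgeR). The ratio of Lats2 to Lats1 counts stayed between 1.97 and 2.67 in all 8 libraries, with a difference in mean log2 ratio of -0.15 (exact permutation test, 2-sided, p = 0.343; adjusted p = 0.629 over 3 ratios).

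Around these genes, the Hippo kinases and their upstream regulators held no called gene. Of 17 tested, Lats2 included, edgeR called 0, with 8 log2 fold changes above 0, 9 below and a median of -0.08, beside 0.516% and 0.420% of all genes called higher and lower. At an unadjusted p under 0.05 there were 2, Map4k4 and Fat1, beside 14.5% of all genes. The DESeq2 Wald test called 1 of the list higher and voom 2, where they called 6.48% and 2.93% of all genes. Map4k4, a kinase that can act in place of the Hippo kinase on LATS, lay at 62.2, 43.5, 31.7 and 22.6 CPM at P18 and at 104, 109, 103 and 67.1 CPM at P28. The ages did not overlap, and the log2 fold change was 1.26 ± 0.33 (adjusted p = 0.0991 by edgeR, 0.0140 by DESeq2 and 0.0195 by voom). For the atypical cadherin genes Fat1 and Fat4 the log2 changes were 1.19 ± 0.40 and 1.49 ± 0.74 (adjusted p of 0.179 and 0.388 by edgeR; 0.0216 by voom for Fat1), and for both the ages overlapped.

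The cofactors and cytoplasmic inhibitors of YAP, TAZ and TEAD were alike in this respect. Of 10 tested, 6 of them among the 10 genes above, edgeR, DESeq2 and voom each called 0; the median log2 fold change was -0.07, and 1 gene, Tead2, had an unadjusted edgeR p under 0.05 (14.5% of all genes). Vgll4, which competes with YAP for TEAD, averaged 136 ± 26.4 at P18 and 172 ± 10.2 CPM at P28 (SD, n = 4; log2 change 0.34 ± 0.20, adjusted p = 0.468 by edgeR). For the LIM proteins Ajuba and Limd1, which bind LATS kinases, the log2 changes were -0.91 ± 0.53 and -0.88 ± 0.82 (adjusted p of 0.470 and 0.680 by edgeR). Of the listed cofactors, Tead4, Vgll3, Amot, Amotl1 and Wtip were not analysed here.

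Of 17 tested genes in a wider list of YAP/TAZ targets, 1 was called higher and 0 lower, beside 0.516% and 0.420% of all genes. Of these 17, 11 had a log2 fold change above 0 and 6 below, with a median of 0.25, and 4 had an unadjusted p under 0.05, Cyr61 among them, beside 5267 of 10472 genes above 0 and 14.5% at that p. The called gene was Ccdc80, a secreted matrix-associated protein, which lay at 258, 221, 241 and 273 CPM at P18 and at 643, 414, 739 and 622 CPM at P28. It rose by 1.28 ± 0.20 on the log2 scale (adjusted p = 0.0188 by edgeR), a call lost when any of P18 replicates 2, 3 and 4 or P28 replicate 1 was left out (edgeR adjusted p up to 0.0916). Myof, a membrane-repair protein, averaged 54.9 ± 18.0 at P18 and 135 ± 65.7 CPM at P28 (SD, n = 4), without overlap (log2 change 1.30 ± 0.35, adjusted p = 0.103 by edgeR). Its DESeq2 and voom adjusted p were 0.0140 and 0.0413, and it passed edgeR without P28 replicate 4 (adjusted p = 0.0497). Nuak2, an AMPK-related kinase, lay at 3.88, 0.144, 0.0852 and 0.406 CPM at P18 and at 22.4, 24.4, 17.7 and 0.208 CPM at P28 (log2 fold change 3.87 ± 1.49, adjusted p = 0.247 by edgeR and 0.0388 by DESeq2). Without P18 replicate 1, the highest at P18, the log2 fold change was 6.22 (adjusted p = 0.0992 by edgeR), and without any other single library it was 3.46 to 4.29. As for Yap1, P28 replicate 4 lay apart from the other 3 P28 libraries, here among the P18 values. Nuak2 in P18 replicate 3 and in P28 replicate 4 was below the level that 3 counts give there, 0.128 and 0.623 CPM.

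The CCN family, to which Ctgf and Cyr61 belong, held 5 tested genes and 0 edgeR calls, with 3 at an unadjusted p under 0.05; over all genes 0.936% were called and 14.5% reached that p. Wisp2 (CCN5) lay at 2.44, 4.39, 8.82 and 0 CPM at P18 and at 18.6, 26.1, 40.4 and 34.1 CPM at P28. The ages did not overlap, with a log2 fold change of 2.92 ± 1.07 (adjusted p = 0.224 by edgeR and 0.0396 by DESeq2, its only call in the family). For Nov (CCN3) the log2 change was 1.37 ± 0.60 (adjusted p = 0.319 by edgeR). Wisp1 (CCN4) lay at 316, 349, 260 and 326 CPM at P18 and at 134, 138, 101 and 403 CPM at P28. Its log2 change was -0.69 ± 0.37 (adjusted p = 0.430 by edgeR). Without P28 replicate 4 it was -1.33 (adjusted p = 0.0143 by edgeR), and voom, which called Wisp1 lower (adjusted p = 0.0357) and Cyr61 higher, called no other gene of the family. Wisp3 had 1 count in P18 replicate 2 and 0 in the other 7 libraries.

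SRF, a transcription factor that responds to actin, shares targets with YAP and TEAD. Of 14 tested genes of SRF and its targets, 2 were called lower and 0 higher, beside 0.420% and 0.516% of all genes. Of the 14, 11 had a log2 fold change below 0, beside 5205 of all 10472 genes, and the median was -0.46. At an unadjusted edgeR p under 0.05 there were 8 of the 14, beside 14.5% of all genes. The tropomyosin genes Tpm1 and Tpm4, whose products stabilise actin filaments, fell. Tpm4 averaged 762 ± 107 at P18 and 344 ± 68.7 CPM at P28 (SD, n = 4), and its log2 change was -1.15 ± 0.20, with an adjusted p of 0.0264 by edgeR. That of Tpm1 was -1.13 ± 0.17, with an adjusted p of 0.0153. The Tpm4 call was lost in the 5 fits that left out P18 replicate 2, 3 or 4 or P28 replicate 1 or 3 (edgeR adjusted p up to 0.0994), and the Tpm1 call in the 3 that left out P18 replicate 2 or 3 or P28 replicate 1 (up to 0.0743). With the replicate number as a block, neither was called. For Acta2, smooth muscle actin, the log2 change was -2.07 ± 0.56 (adjusted p = 0.105 by edgeR, 0.0486 without P28 replicate 2 and 0.00766 by DESeq2). Summed CPM of 10 smooth muscle and pericyte markers, Acta2 included, ran from 612 to 1065 at P18 and from 478 to 1202 at P28. The part of these cells in the Acta2 level was not tested.

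**Figure D3:**
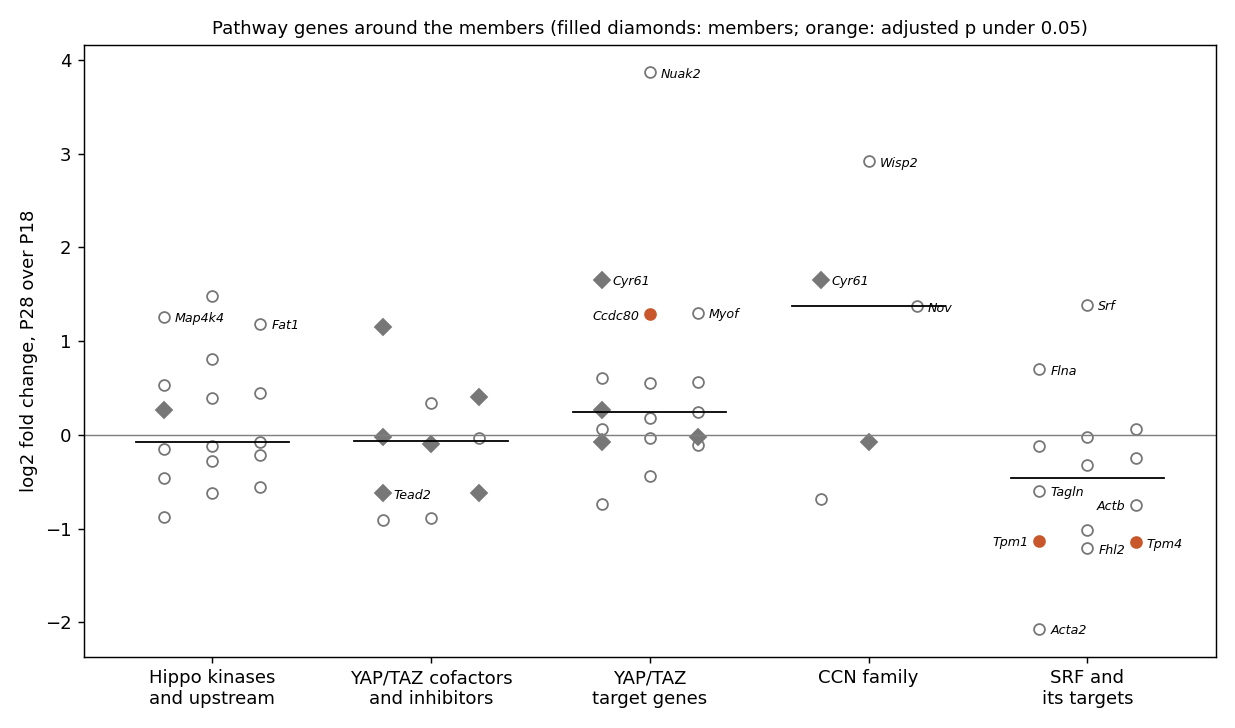
Log2 fold change, P28 over P18 (vertical axis), of every tested gene in 5 lists of the pathway; filled diamonds are the genes of the main set, open circles the other list genes, orange marks an edgeR adjusted p under 0.05, names are given where the unadjusted p is under 0.05, and the horizontal bar is the list's median. The 3 orange points are Ccdc80 above 0 and Tpm1 and Tpm4 below it.

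For Yap1, Wwtr1, Ctgf and Cyr61, the genes with the most similar pattern of log2 CPM over the 8 libraries were looked up among 7814 or 7815 genes with a mean log2 CPM of at least 3. They were Tmem218 (Pearson r = 0.979) and Vezt (0.977) for Yap1, and Ppid (0.935) for Wwtr1. For Ctgf they were Fbxo22 (0.992) and Appl2 (0.982), and for Cyr61 Ddx3x (0.941) and Dmp1 (0.939). An r above 0.9 was reached by 26 genes with Yap1, 3 with Wwtr1, 44 with Ctgf and 7 with Cyr61. The points share library depth and age group, and the genes are the closest of all those searched, so the values are a description.

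**Figure D4:**
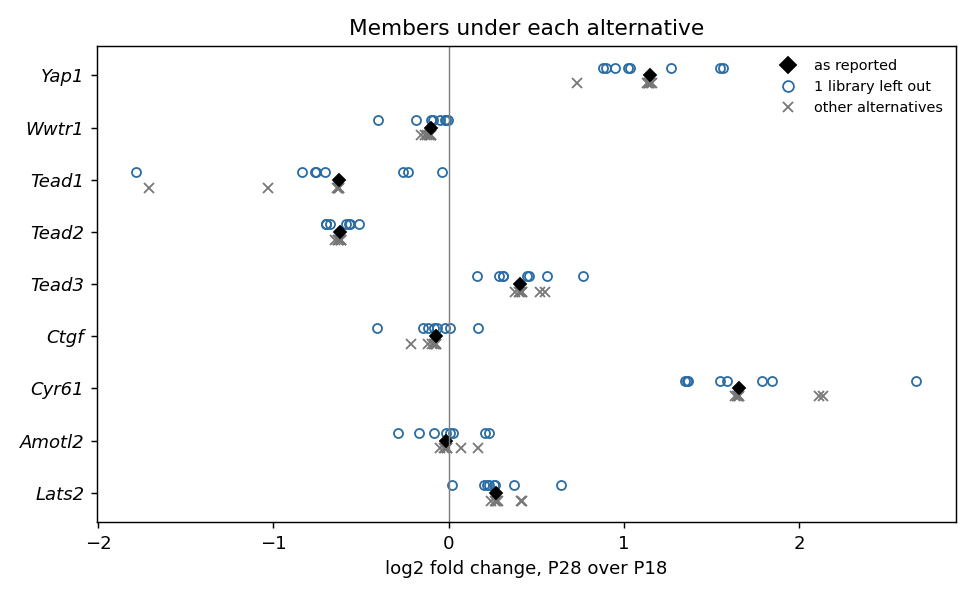
Log2 fold change, P28 over P18 (horizontal axis), of the 9 tested genes as reported (black diamonds), with 1 library left out (blue circles) and under the other alternatives (grey crosses). Cyr61 stays at 1.35 or above and Tead2 at -0.51 or below when 1 library is left out, and Ctgf and Amotl2 lie on both sides of 0.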

How the data were processed

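The authors deposited raw counts per gene symbol, with 17337 genes. For how they were made, the submitters' processing notes list STAR 2.5.3a, HTSeq 0.9.1, edgeR 3.16.5 and the build rn6, without roles; annotation and strand setting are not known here. Per the labels, laser-captured total RNA was prepared with the SMARTer Ultra Low input kit. In the table, 40 columns of other samples were not used. From the counts, edgeR 4.0.16 (R 4.3.3) gave TMM-scaled CPM and a 2-sided quasi-likelihood test with age as the only term, over the 10472 genes that passed its expression filter (minimum count 10), with Benjamini-Hochberg adjustment over all of them. SE is the size of the log2 fold change divided by the root of F, and log2 CPM used a prior count of 2. As alternatives, scaling was by DESeq2 size factors or upper quartile, the test by DESeq2 1.42.0 or limma 3.58.1 with voom and quality weights, the filter none or 10 counts in 4 libraries, the subject number a block, and each library left out. Tested on simulated counts for this comparison (3 draws, 10219 genes in the first), the fit called 7.33% of genes changed 2-fold and 54% of those changed 4-fold. Changes were set only in genes above a mean CPM that Yap1, Tead1 and Ankrd1 do not reach, so these shares do not apply to them. The 10 genes and the lists were chosen with earlier results of these data known. Named besides the 10 genes were, per list, every called gene and those among the 3 lowest p, and the 2 most similar genes of 4 of them, of which 1 is not reported here. PCR copies of a read are not separate molecules, so intervals and limits from counts (95%; a count of 0 allows 3) cover counting error only. Protein sequences were not used here.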

Additional observations from a re-analysis of the deposited data

Results flagged for a closer look

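Within an age, a library was marked where its gap to the nearest of the other 3 was too large a share of the range of the 4 by Dixon's 95% criterion. Of 26 groups of 4 values checked, 4 were marked, and chance marks about 1 in 20. Wwtr1 was marked at P28, where replicate 2 lay at 55.4 CPM. Tead1 was marked at P18, where replicate 2 lay at 4.13 CPM. Ankrd1 was marked at both ages, with P18 replicate 4 at 3.25 CPM and P28 replicate 1 at 3.81 CPM. Cyr61 in P18 replicate 4, the only library without which edgeR called it, was not marked.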

How the results depend on the processing

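Over 15 alternatives, 135 values of the 9 tested genes were computed; 125 kept their direction and their side of the threshold. Cyr61 passed with voom and quality weights (2.11) and in 1 of the 8 fits without 1 library, so that the number of called genes among the 9 was 1 there. Directions near 0 changed for Ctgf without P28 replicates 2 (0.00475) and 4 (0.17) and for Amotl2 with voom (0.0717), with the replicate block (0.17) and without P18 replicates 2 (0.21) and 4 (0.23) or P28 replicates 1 (0.00604) and 3 (0.02). The difference in the Tead1 share changed sign without P18 replicate 2 (0.596 percentage points) and P28 replicates 3 (0.140) and 4 (0.211). Leaving out 1 library, the log2 fold changes ran from 0.88 to 1.56 for Yap1, -0.40 to -0.00125 for Wwtr1, -1.79 to -0.04 for Tead1, -0.70 to -0.51 for Tead2, 0.16 to 0.77 for Tead3, -0.41 to 0.17 for Ctgf, 1.35 to 2.67 for Cyr61, -0.29 to 0.23 for Amotl2 and 0.02 to 0.64 for Lats2. The difference in log2 ratio of Wwtr1 to Yap1 ran from -1.83 to -0.37, that of Lats2 to Lats1 from -0.23 to -0.10, and that of the Tead1 share from -1.89 to 0.60.

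Of all genes tested, 54 were called higher and 44 lower; the DESeq2 Wald test called 404 and 326, voom 175 and 132, the replicate block 16 and 10, and fits without 1 library 4 to 110 and 5 to 105. The Hippo list had 1 call higher with DESeq2 and 2 with voom. The target list had 3 with each, and 0 to 2 without 1 library. The CCN family had 1 higher with DESeq2, 1 higher and 1 lower with voom, and 0 to 1 in each direction without 1 library. The SRF list had 4 lower with DESeq2, 0 with the replicate block, and 0 to 3 without 1 library. The cause of these changes was not tested. Subject numbers name different animals at the ages, and same-numbered libraries did not deviate together (r of -0.02 to 0.00189 across genes); no number matched its own best. Yap1, Tead1 and Ankrd1 rest on few counts, at most 115 in any library; the part of depth in their spread was not tested.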
